A study of Mus musculus with 10 samples.

Results

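A set of 10 genes of fatty acid uptake, binding and activation were followed in mouse colon organoids given the PPARα agonist WY-14643 or its vehicle. They were taken by gene symbol from a table of 56748 genes, and all 10 were found as protein-coding genes: the uptake genes Cd36, Slc27a2 and Slc27a4, the fatty acid-binding protein genes Fabp1, Fabp2 and Fabp5, and the long-chain acyl-CoA synthetase genes Acsl1, Acsl3, Acsl4 and Acsl5. Of these, 8 had a mean of at least 0.5 FPKM (fragments per kilobase of gene, scaled per library) over all libraries and were tested, and Cd36 and Slc27a2 fell below that level. The symbols alone chose the genes, and no measured value entered the choice, although earlier results of these data were known when the group was drawn up.

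Long-chain fatty acids reach the cytosol by way of membrane proteins such as CD36 and the fatty acid transport proteins of the SLC27 family. Inside the cell they are held in solution by small fatty acid-binding proteins and are coupled to coenzyme A by acyl-CoA synthetases, the step that commits them to oxidation, to esterification or to membrane lipid. PPARα is a nuclear receptor for fatty acids that pairs with RXR and binds direct repeats in DNA, and several genes of this route, Fabp1 and Acsl1 among them, are textbook targets of it in liver and small intestine.

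The organoids are cultures of colon epithelium grown from crypt cells. They were exposed from day 3 after passage, for 2 days, to 100 µM WY-14643 (5 libraries, replicates 6 to 10) or to vehicle alone (5 libraries, replicates 1 to 5), and polyadenylated RNA was sequenced. The labels give no genotype, strain, age, animal or culture of origin, and the p-values here rest on spread among these libraries, some or all of which may be technical. No arm with cells lacking PPARα is among the samples, and the cell line field says only colon organoid.

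Depth ranged from 15618244 to 29271304 gene-assigned reads per library. Epithelial markers were high, with 8 of 8 genes above the filter and a summed level of 4065 to 6889 FPKM in vehicle, against 3795 to 7322 FPKM after WY-14643, led by Krt19 and Krt8. Markers of cells outside the epithelium were scarce. Of 8 leucocyte markers 1 passed the filter (Cd68), the macrophage and T cell genes Adgre1, Lyz2 and Cd3e were at 0 in all 10 libraries, and the sums were 3.19 to 5.88 and 3.16 to 6.72 FPKM. None of 6 fibroblast markers (sums at most 0.185 and 0.214 FPKM, Dcn and Lum at 0) and none of 5 endothelial markers (at most 0.893 and 0.739 FPKM) passed. Of 5 adipocyte markers only Cidec, a lipid droplet gene, passed, and Adipoq, Plin1 and Lep were at 0 in every library (sums 0 to 5.23 and 0.307 to 8.05 FPKM). Goblet markers summed to 35.6 to 75.2 and 18.8 to 78.4 FPKM, with 7 of 8 above the filter and Agr2 and Tff3 highest. No enteroendocrine marker of 6 and no tuft marker of 5 passed (sums at most 2.09 and 1.76 FPKM, and 0.365 and 0.441 FPKM, with Il25 at 0). The colonocyte gene Car4 was at 0 in all 10 libraries, while Car1 was the highest absorptive marker.

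Libraries of a group differed widely, and their deviations recurred across groups in numerical order, vehicle replicate 1 with WY-14643 replicate 6 up to vehicle replicate 5 with WY-14643 replicate 10. For these pairs the correlation of deviations across genes was 0.423 to 0.782, against at most 0.0602 for any other vehicle and WY-14643 library. The labels state no such pairing. Both the planned fit without pairs and a matched fit with the 5 pairs as a block are therefore given, and pairs are numbered 1 to 5 after the vehicle replicate.

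Per unit of gene length, the activating enzymes dominated the group. In vehicle libraries Acsl5 was highest (88.8 ± 10.1 FPKM; SD, n = 5, as for all means here), followed by Acsl3 (60.6 ± 20.0), Acsl4 (27.2 ± 7.72), Slc27a4 (11.6 ± 0.846), Fabp2 (6.65 ± 2.32), Acsl1 (1.71 ± 0.288), Fabp5 (1.52 ± 0.929), Slc27a2 and Fabp1 (0.0126 ± 0.0282 and 0.0125 ± 0.0278) and Cd36 (0.0026 ± 0.00581). The ranges of Acsl5 and Acsl3, of Acsl1 and Fabp5, and of the last 3 genes overlapped between neighbours in this order. In WY-14643 libraries the means of Acsl3 (92.6 ± 26.4 FPKM) and Fabp1 (3.53 ± 6.0 FPKM) moved up the order, ahead of Acsl5 (83.4 ± 8.68) and of Acsl1 (1.89 ± 0.321), with ranges that overlapped both. The place of Fabp1 rests on replicate 9: in the other 4 treated libraries it was below Acsl1, with a mean of 0.853 ± 0.631 FPKM.

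None of the 8 tested genes passed at an adjusted p of 0.05 in the fit without pairs (limma on log2(FPKM + 1), Benjamini-Hochberg over 13607 genes), in which 0% of all genes tested were called. At an unadjusted p under 0.05, 2 of the 8 were higher in WY-14643 (Fabp1 and Acsl3), against 1.01% of all genes, and voom on recovered reads without pairs also called 0. In the matched fit 0 of the 8 passed, where 0.316% of all genes were called (0.287% higher and 0.0294% lower), and Acsl3 came nearest (adjusted p = 0.0540). Those 43 genes became 2 when pair 3 was left out. At an unadjusted p under 0.05 the matched fit had 3 of the 8 higher (Fabp1, Fabp2 and Acsl3), against 5.48% of all genes. Voom on the recovered reads with pairs called the same 3, all higher, where 1.56% of all genes were called and 1.21% were called higher. Within pairs, 3 of the 8 were higher in 5 of 5 (Fabp2, Slc27a4 and Acsl3), against 5.63% of all genes, and 1 was lower in 5 of 5 (Acsl5), against 6.09%. The median log2 fold change over the 8 was 0.09, beside -0.01 over all genes tested. Fabp1 reached the filter only through its WY-14643 libraries, so these counts are a description.

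**Figure D1:**
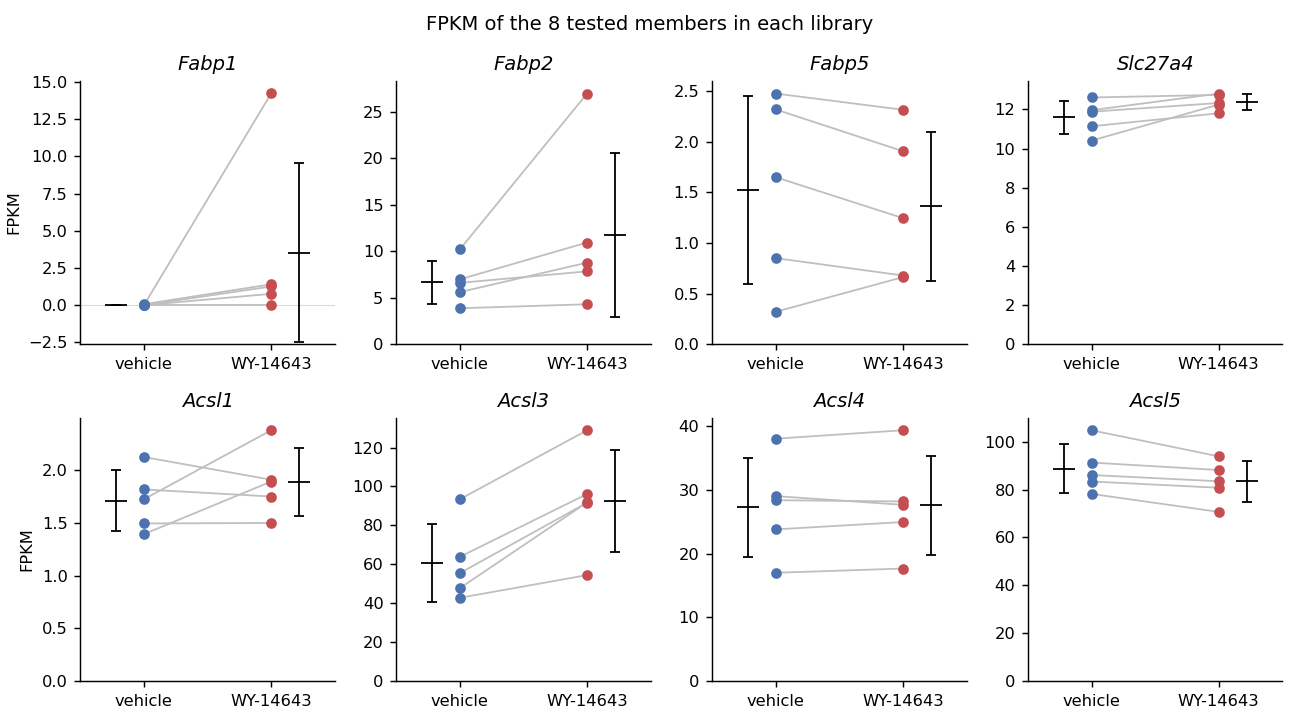
FPKM of each tested gene (y axis, from 0 except for Fabp1) in vehicle and WY-14643 libraries; points are libraries, grey lines join libraries of the same pair, and black marks are means ± SD of 5. Acsl3 lines all climb, Acsl4 and Acsl5 lines run almost level, and a single WY-14643 library stands far above the rest for Fabp1 and Fabp2.

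Of the uptake genes, only Slc27a4 was well expressed. Cd36 encodes the scavenger receptor and fatty acid translocase that is abundant in muscle, fat and proximal small intestine (chromosome 5 from 17986688 to 18093799, build mm39, ENSMUSG00000002944). It gave 1 read in vehicle replicate 5 and 0 reads in every other library, where 3 reads would have been 0.0288 to 0.0530 FPKM. Slc27a2, a very long-chain acyl-CoA synthetase and transporter of liver and kidney (chromosome 2 from 126394327 to 126430163, ENSMUSG00000027359), gave 5 reads in vehicle replicate 3, 1 read in WY-14643 replicate 10 and 0 reads in the other 8 libraries. With reads in so few libraries, a permutation test of the means could not tell the groups apart whatever the assignment, and no p is given. At this depth neither gene had a read in most libraries, with or without the agonist.

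Slc27a4 encodes FATP4, the main transport protein of its family in intestinal epithelium, which also has acyl-CoA synthetase activity (chromosome 2 from 29692646 to 29707534, ENSMUSG00000059316). It measured 10.4, 11.1, 11.9, 12 and 12.6 FPKM in vehicle replicates 1 to 5 and 12.2, 11.8, 12.3, 12.8 and 12.7 FPKM in WY-14643 replicates 6 to 10. Every treated library was above its vehicle partner, by between 1.01 and 1.18 times, yet the groups overlapped. Its log2 fold change was 0.09 ± 0.07 without pairs (SE; limma, adjusted p = 1.0; 95% interval -0.07 to 0.25), and the matched interval was -0.02 to 0.20 (adjusted p = 0.537). With 786 to 1427 reads per library, its vehicle libraries spanned 1.21-fold, the least of the 7 tested genes read in every vehicle library. Of the summed FPKM of the 6 Slc27a genes it made up 61.2 ± 5.28% in vehicle, against 61.2 ± 5.53% after WY-14643, and most of the rest was Slc27a1, at 31.4 ± 3.72% and 31.1 ± 3.91%.

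Fabp1 encodes the liver form of the binding proteins, which carries fatty acids and other ligands and is typical of absorptive enterocytes of the proximal gut and to hepatocytes (chromosome 6 from 71176811 to 71182007, ENSMUSG00000054422). In vehicle libraries it gave 0, 1, 0, 0 and 0 reads (replicates 1 to 5), and in WY-14643 libraries 11, 13, 7, 140 and 0 reads (replicates 6 to 10). These correspond to 0.0623 FPKM in vehicle replicate 2 and to 1.25, 1.40, 0.759 and 14.2 FPKM in WY-14643 replicates 6 to 9. In 4 of 5 treated libraries the level was thus above all vehicle libraries, and the fifth had no read, where 3 reads would have been 0.234 FPKM. Summed over libraries there were 171 reads of 89067810 in WY-14643 and 1 read of 103837209 in vehicle, a ratio of 199 (exact 95% interval 35.3 to 7920, counting error only). Without WY-14643 replicate 9 the ratio was 45.1 (7.51 to 1837), with 31 reads against 1.

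On the log2(FPKM + 1) scale the difference of Fabp1 was 1.42 ± 0.58 (SE; limma without pairs, adjusted p = 1.0), and 0.80 without WY-14643 replicate 9. The matched fit gave an adjusted p of 0.420. Voom with pairs, which works on log2 reads, gave a log2 fold change of 4.81 (adjusted p = 0.0225). That value depends on the small count added to libraries without a read and is no bound. Because only its WY-14643 libraries carried Fabp1 past the filter, the p-values of this gene are given as a description and not as support for a difference.

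The RefSeq promoters were searched because PPARα with RXR binds a direct repeat of AGGTCA with 1 base between (AGGTCANAGGTCA, both strands). Of the 10 genes, 9 had an entry in the table, which covers build GRCm38.p6, and Acsl1 had 2 entries. The 250 bases before the start site are shown for Fabp1, Fabp2 and Acsl3, the genes with the largest fold changes, 5′ to 3′ on the gene's own strand. Capitals mark the stretch closest to the repeat on either strand.
Fabp1: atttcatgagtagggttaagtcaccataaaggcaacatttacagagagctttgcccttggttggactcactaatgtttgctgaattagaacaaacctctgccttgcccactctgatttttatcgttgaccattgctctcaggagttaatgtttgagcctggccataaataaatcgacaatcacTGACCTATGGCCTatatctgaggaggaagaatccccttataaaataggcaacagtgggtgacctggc
Fabp2: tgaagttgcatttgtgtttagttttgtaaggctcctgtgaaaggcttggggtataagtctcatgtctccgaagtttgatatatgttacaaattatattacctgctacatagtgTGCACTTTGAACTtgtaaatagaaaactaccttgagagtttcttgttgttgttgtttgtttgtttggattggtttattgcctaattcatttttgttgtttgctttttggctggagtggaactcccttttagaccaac
Acsl3: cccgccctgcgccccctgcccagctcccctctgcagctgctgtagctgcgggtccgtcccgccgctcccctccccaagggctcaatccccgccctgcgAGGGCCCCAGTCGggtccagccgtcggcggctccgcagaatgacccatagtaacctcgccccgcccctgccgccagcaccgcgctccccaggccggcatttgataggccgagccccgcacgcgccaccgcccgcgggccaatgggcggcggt
The windows are chr6:71199629-71199878 (plus strand) for Fabp1, chr3:122894822-122895071 (plus strand) for Fabp2 and chr1:78657575-78657824 (plus strand) for Acsl3. The Fabp1 stretch, TGACCTATGGCCT on the gene's strand from -67 to -55 before the start site, reads as the repeat on the opposite strand with 1 mismatch, and 0.484% of 32851 promoter windows of this length held a stretch as close. It was also the only one among the 10 entries to match the looser form AGGNCANAGGNCA, held by 0.338% of windows. It includes 1 of the 2 AGGTCA in this promoter window, and 14.0% of windows hold at least 1. The same promoter holds a TATAAA, found in 12.4%. The closest stretch of Fabp2 had 3 mismatches, as close as in 21.3% of windows, and that of Acsl3 had 5, which 99.6% of windows reach. Between them, Cd36 had 2 mismatches (3.24% of windows), Slc27a2, Acsl4 and Acsl5 had 3, and Slc27a4 and both Acsl1 entries had 5. A match is a description of letters and shows no binding.

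Fabp2, the intestinal-type fatty acid-binding protein of absorptive cells (chromosome 3 from 122688721 to 122693155, ENSMUSG00000023057), was present in all libraries with 80 to 463 reads. It measured 6.60, 5.6, 6.98, 10.2 and 3.87 FPKM in vehicle replicates 1 to 5 and 7.83, 8.77, 10.9, 27.0 and 4.30 FPKM in WY-14643 replicates 6 to 10. The treated library of each pair was higher, by 1.19, 1.57, 1.57, 2.65 and 1.11 times in pairs 1 to 5, but the groups overlapped and replicate 9 exceeded all others. The log2 fold change was 0.56 ± 0.39 (SE; limma without pairs, adjusted p = 1.0; 95% interval -0.29 to 1.41) and fell to 0.22 without WY-14643 replicate 9. With pairs it was 0.56 ± 0.17 (adjusted p = 0.315), and voom with pairs gave 0.77 (adjusted p = 0.0496). The long non-coding RNA gene 4933405D12Rik lies across Fabp2 on the other strand, at 0.302 ± 0.0351 FPKM in vehicle, against 0.601 ± 0.311 FPKM after WY-14643. Where exons of both genes overlap, their reads cannot be told apart if the libraries carry no strand. Only the spans of the genes were compared, and overlap of exons was not checked.

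Fabp5, the epidermal-type binding protein (chromosome 3 from 10077608 to 10081667, ENSMUSG00000027533), ran differently. It was at 2.47, 2.32, 1.65, 0.320 and 0.85 FPKM in vehicle replicates 1 to 5 and at 2.31, 1.90, 1.24, 0.662 and 0.678 FPKM in WY-14643 replicates 6 to 10. The treated library was lower in pairs 1, 2, 3 and 5 and higher in pair 4, where the vehicle library had 18 reads. The difference between groups was small beside a 7.73-fold span among vehicle libraries (log2 fold change -0.06 ± 0.30; limma without pairs, adjusted p = 1.0; 95% interval -0.73 to 0.60), and matching narrowed the interval to -0.30 to 0.17. Fabp5 has processed pseudogene copies that can share its reads. Together the binding protein genes, 10 in the family list, summed to 8.28 ± 2.14 FPKM in vehicle, against 16.8 ± 14.4 FPKM after WY-14643, and to 10.5 ± 3.69 FPKM in the 4 treated libraries other than replicate 9 (42.0 FPKM). Fabp2 made up 64.2% to 96.5% of the sum in each library.

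**Figure D2:**
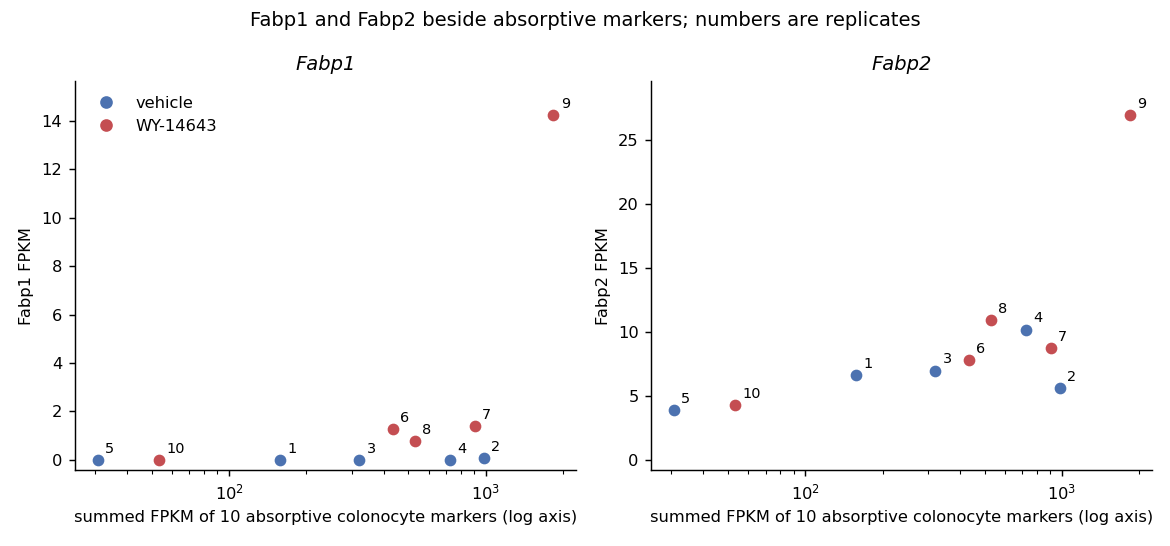
Fabp1 (left) and Fabp2 (right) FPKM against the summed FPKM of 10 absorptive colonocyte markers (log x axis), a point per library, labelled with its replicate. WY-14643 replicate 9 is highest on both axes; vehicle replicates 2 and 4 have high marker sums with 0 or 1 read of Fabp1.

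Absorptive markers ran with these genes in some libraries and not in others. The summed level of the 10 absorptive colonocyte markers, of which 6 passed the filter, was 158, 981, 322, 727 and 30.8 FPKM in vehicle replicates 1 to 5 and 434, 905, 530, 1837 and 53.3 FPKM in WY-14643 replicates 6 to 10. Most of it came from Car1 and Krt20, which had higher means after WY-14643, as did Slc26a3, Guca2a and Ceacam20. Clca4a had a lower mean (8.36 FPKM in vehicle, 6.12 FPKM after WY-14643), as did Aqp8, Saa1 and Slc37a2, which were below the filter. The sum was highest in WY-14643 replicate 9, where Fabp1 and Fabp2 were also highest, and low in replicate 10, where Fabp1 had no read. Within pairs 1 to 5 the sum changed by 2.74, 0.923, 1.65, 2.53 and 1.73 times. Small intestinal enterocyte markers, of which 3 of 10 passed, summed to 2.74 to 28.0 FPKM in vehicle, against 5.16 to 52.4 FPKM after WY-14643, mostly from Alpi, and stem and transit amplifying markers (6 of 8 passed, Pcna and Mki67 highest) to 60.5 to 251 and 70.7 to 238 FPKM. Vehicle replicates 2 and 4 had absorptive sums above those of WY-14643 replicates 6 and 8, and they gave 1 and 0 reads of Fabp1 against 11 and 7. In pair 2 the sum was 0.923 of its vehicle value, Fabp1 had 1 read in vehicle and 13 after WY-14643, and the Fabp2 ratio was 1.57. The part of the marker differences in the Fabp1 and Fabp2 values was not tested in any pair. In bulk RNA a change in the number of cells of a type and a change in RNA per cell cannot be told apart.

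Acsl3 is an acyl-CoA synthetase of the endoplasmic reticulum and of lipid droplets that feeds fatty acids into glycerolipids (chromosome 1 from 78635542 to 78685460, ENSMUSG00000032883). Among the tested genes higher in 5 of 5 pairs, it had the largest log2 fold change in the limma fits of all 10 libraries (0.61, beside 0.56 for Fabp2). With some libraries left out, and in voom with pairs (0.77 against 0.62), Fabp2 had the larger value. Acsl3 was at 55.4, 93.4, 63.8, 47.7 and 42.7 FPKM in vehicle replicates 1 to 5. In WY-14643 replicates 6 to 10 it was at 91.7, 129, 96.1, 91.8 and 54.4 FPKM. The treated library was higher in 5 of 5 pairs, by 1.65, 1.38, 1.51, 1.92 and 1.27 times. The groups overlapped nevertheless, because vehicle replicate 2 lay above 3 treated libraries and WY-14643 replicate 10 below 3 vehicle libraries.

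Its log2 fold change was 0.61 ± 0.25 (SE; limma without pairs, adjusted p = 1.0; 95% interval 0.06 to 1.16). Matching cut the error to 0.08 and the interval to 0.41 to 0.81, but Acsl3 did not pass over all genes (adjusted p = 0.0540). With a pair left out the matched adjusted p was 0.0650 to 0.225. It passed in voom with pairs (log2 fold change 0.62, adjusted p = 0.00157) and, with pairs and library weights, at an adjusted p of 0.0438, a fit in which 73 genes were called. The matched fold stayed between 0.53 and 0.67 on the log2 scale when any pair was left out. Utp14b, a coding gene on the same strand, lies within the Acsl3 span and was at 5.45 ± 1.27 and 6.78 ± 2.35 FPKM in vehicle and WY-14643.

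Acsl5, the synthetase of intestinal epithelium found on mitochondria and endoplasmic reticulum (chromosome 19 from 55240370 to 55286152, ENSMUSG00000024981), went slightly the other way. It measured 86.1, 78.2, 91.3, 83.4 and 105 FPKM in vehicle replicates 1 to 5 and 83.5, 70.7, 88.2, 80.8 and 93.9 FPKM in WY-14643 replicates 6 to 10. The treated library was lower in 5 of 5 pairs, at 0.896 to 0.970 of its partner. The log2 fold change of -0.09 ± 0.11 did not pass (limma without pairs, adjusted p = 1.0; 95% interval -0.33 to 0.15), nor did it with pairs (adjusted p = 0.499; -0.18 to 0.01). Zdhhc6 overlaps Acsl5 on the opposite strand, at 12 ± 1.53 and 11.6 ± 0.817 FPKM.

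Acsl4, which prefers arachidonic and other polyunsaturated acids (X chromosome from 141100989 to 141173531, ENSMUSG00000031278), differed far more between pairs than within them. It measured 28.4, 29.0, 23.8, 38.0 and 17.0 FPKM in vehicle and 28.2, 27.6, 24.9, 39.4 and 17.6 FPKM in WY-14643, in replicate order, and the ratio within a pair was 0.953 to 1.05. Pairs took 99.5% of its sum of squares on the log2 scale and treatment 0.0599%. Its matched 95% interval was the narrowest that included 0 in the group, -0.08 to 0.11, around a log2 fold change of 0.02 (limma, adjusted p = 0.911).

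Acsl1, the synthetase of liver, fat and muscle and a PPARα target there (chromosome 8 from 46924074 to 46989088, ENSMUSG00000018796), was low. It held 1.39, 2.13, 1.82, 1.72 and 1.49 FPKM in vehicle and 1.89, 1.91, 1.75, 2.38 and 1.5 FPKM in WY-14643, in replicate order. Treated libraries were higher in 3 of 5 pairs and lower in 2. The 95% interval of its log2 fold change of 0.09 was -0.17 to 0.35 (limma without pairs, adjusted p = 1.0). It had 250 to 647 reads per library.

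**Figure D3:**
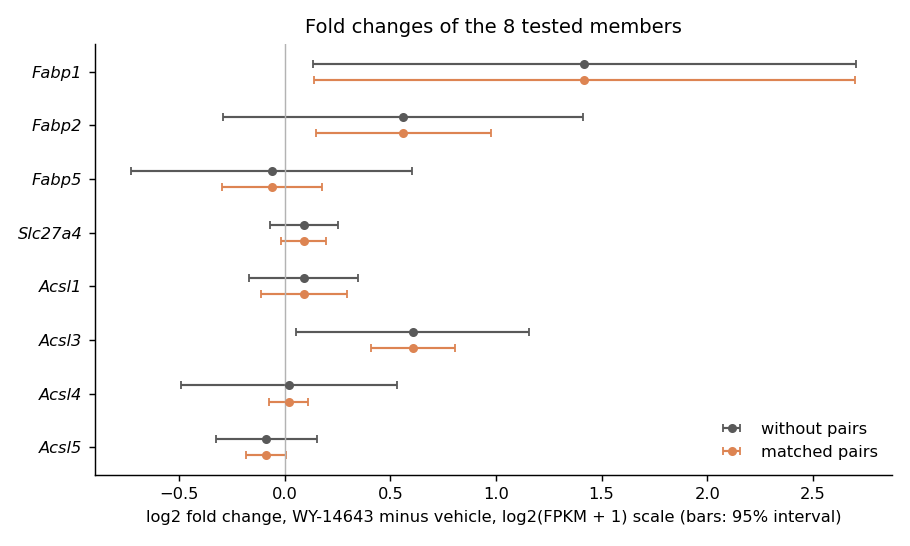
Log2 fold change (x axis, WY-14643 minus vehicle on the log2(FPKM + 1) scale) of the 8 tested genes; points are estimates and bars 95% intervals, grey without pairs and orange with matched pairs. Matching leaves the estimates in place and shortens most bars, and Fabp1, Fabp2 and Acsl3 have matched bars that lie above 0. Only its WY-14643 libraries carried Fabp1 past the filter, so its bars are a description.

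The mix of long-chain synthetases shifted towards Acsl3 in every pair. Of the summed FPKM of the 5 Acsl genes, Acsl3 made up 32.4%, 46.1%, 35.3%, 27.9% and 25.7% in vehicle replicates 1 to 5 and 44.7%, 56.3%, 45.6%, 42.8% and 32.5% in WY-14643 replicates 6 to 10. The share of Acsl5 was 50.3 ± 8.73% in vehicle and 41.4 ± 9.24% in WY-14643 and was lower in 5 of 5 pairs. Acsl4 took 15.3 ± 4.51% and 13.3 ± 3.05%, Acsl1 at most 1.11% in any library, and Acsl6 at most 0.0124%. The sum itself was 178 ± 14.7 and 205 ± 23.0 FPKM. The ratio of Acsl3 to Acsl5 was above 1 in 1 vehicle library (replicate 2, 1.19) and in 4 WY-14643 libraries (1.1, 1.82, 1.09 and 1.14 in replicates 6 to 9), and 0.580 in replicate 10. Shares were not tested on their own, since they restate the levels of the same genes.

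**Figure D4:**
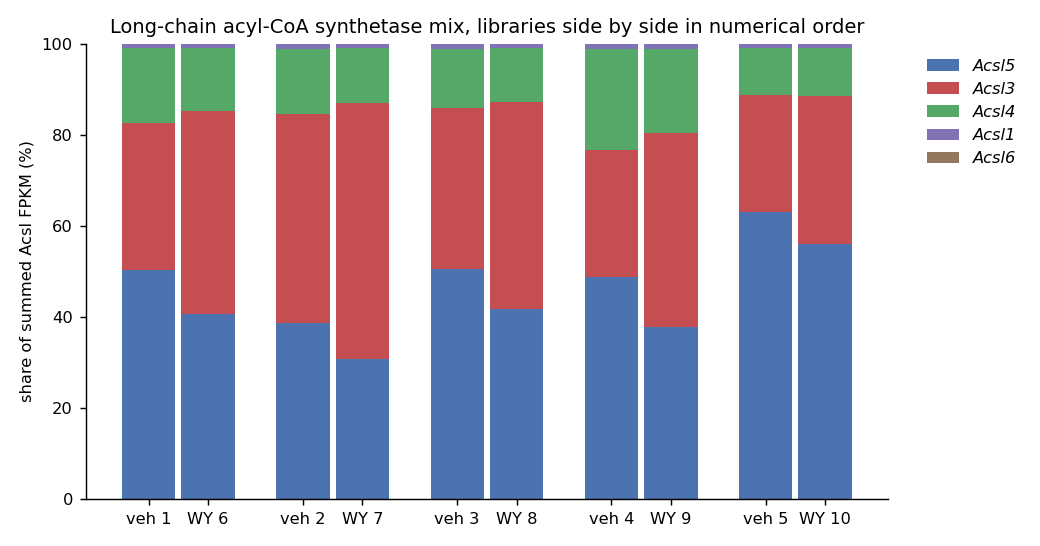
Share of each Acsl gene in their summed FPKM (y axis, percent) per library, with the libraries of a pair side by side (veh, vehicle; WY, WY-14643). In each pair the Acsl3 block is taller and the Acsl5 block shorter in the WY-14643 library.

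In 7 of the 8 tested genes, pairs took a larger part of the sum of squares than treatment did. Pairs have more degrees of freedom than treatment, so these shares do not rank them on equal terms. Pairs took 94.9% of the sum of squares of Fabp5, 87.8% of Acsl5, 73.3% of Fabp2, 58.2% of Acsl3, 56.7% of Acsl1 and 52.1% of Slc27a4, and treatment took 0.422%, 9.15%, 17.1%, 37.5%, 9.54% and 30.2% in the same order. For Fabp1, pairs took 31.7% and treatment 36.5%. Over the 10 libraries, and as a description of points that share their pairs, the highest correlation among the 8 tested genes was between Fabp1 and Fabp2 (Pearson r = 0.863), the next between Fabp2 and Acsl4 (r = 0.792), and the lowest between Acsl3 and Acsl5 (r = -0.779).

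Among 10375 protein-coding genes with a mean of at least 1 FPKM, Fabp2 was also the gene closest in pattern to Fabp1 (r = 0.8629). Sh3d21 and Nectin2 were almost level with it (r = 0.8605 and 0.8601). Fabp1 had no read in most vehicle libraries and in WY-14643 replicate 10, and 140 reads in WY-14643 replicate 9, so few libraries set these values. Those closest to Acsl3 over the 10 libraries were Tnfrsf14, Sptssb and Gpx7 (r = 0.973, 0.969 and 0.968), with Sptssb, a regulatory subunit of serine palmitoyltransferase, at 29.3 and 47.3 FPKM in vehicle and WY-14643. Those closest to Fabp2 were Cgref1, Tcf23 and Tpd52l2 (r = 0.946, 0.942 and 0.932), and to Acsl4 Fbxl5, Diaph2 and Plk3 (0.984, 0.975 and 0.972). Nearest to Slc27a4, Acsl1 and Acsl5 were Ciao3 (0.95), Zfp189 (0.936) and Ephb3 (0.943).

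Other genes of the same route were taken by role. None of 7 other binding protein genes passed the filter, and of these Fabp3 was highest, at 0.0705 ± 0.0606 and 0.113 ± 0.0889 FPKM. Of 11 other uptake genes 7 were tested and 0 passed in either fit, with a median log2 fold change of 0.05. They include Cav1, the caveolin, at 25.8 ± 17.1 and 19.4 ± 14.1 FPKM, which was lower in 5 of 5 pairs, and Got2, the aspartate aminotransferase also known as a plasma membrane fatty acid-binding protein, at 24.5 ± 3.32 and 24.8 ± 1.86 FPKM. Mfsd2a and Slc27a3 had log2 fold changes of 0.13 and 0.09. Of 14 other acyl-CoA synthetases 6 were tested and 0 passed. All 6 had a positive log2 fold change (median 0.17), as did 6409 of the 13607 genes tested. Those of Acsm3 and Acsf3 were only 0.016 and 0.015. Acsf2, a medium-chain synthetase, was at 31.4 ± 22.5 and 37.4 ± 22.1 FPKM and Acss2, the acetyl-CoA synthetase, at 6.88 ± 4.61 and 8.35 ± 4.07 FPKM, both higher in 5 of 5 pairs, whereas Acsm3 was at 27.8 ± 6.48 and 28.1 ± 6.23 FPKM.

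Of 6 acyl-CoA-binding protein genes 5 were tested and 0 passed. Dbi, which encodes the main acyl-CoA-binding protein and has processed pseudogenes, was at 64.3 ± 21.6 and 92.2 ± 24.1 FPKM and higher in 4 of 5 pairs (log2 fold change 0.57; limma without pairs, adjusted p = 1.0; 0.373 with pairs). Acbd4 and Acbd3 had log2 fold changes of 0.24 and -0.07.

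Of 18 genes of esterification and chylomicron assembly 14 were tested and 0 passed in either limma fit. Their median log2 fold change was 0.06. Dgat2, which makes triglyceride from diacylglycerol, was at 8.41 ± 2.93 and 14.8 ± 5.85 FPKM (log2 fold change 0.71; adjusted p = 1.0 without pairs, 0.0840 with pairs and 0.00256 in voom with pairs). Lpcat3, which puts polyunsaturated acyl chains into phosphatidylcholine, was at 42.1 ± 10.5 and 58.1 ± 9.97 FPKM (0.47; limma, adjusted p = 1.0, 0.0684 and 0.00243 in the same order). Both were higher in 5 of 5 pairs. Agpat2 was at 43.5 ± 8.84 and 45.1 ± 9.21 FPKM, and the chylomicron apolipoprotein genes Apob, Apoa1, Apoa4 and Apoc3 stayed below the filter.

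Genes of fatty acid oxidation were listed for comparison because they were known to differ in these data. Their larger differences follow from that choice. The list also holds Pdk4, Angptl4 and Plin2, which do not encode enzymes of fatty acid oxidation. Of 12, 11 were tested, their median log2 fold change was 0.60, and 6 rose in the matched fit, in which 0.287% of all genes were called higher; 0 passed without pairs. They include Cpt1a, the entry enzyme of mitochondrial oxidation (log2 fold change 1.15; limma with pairs, adjusted p = 0.010), Acadl (0.64; 0.0221) and Acaa2 (0.84; 0.0202). Acsl3 had nearly the same fold change as Acadl, with an adjusted p just above the threshold. A test of the difference between the lists was not made.

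**Figure D5:**
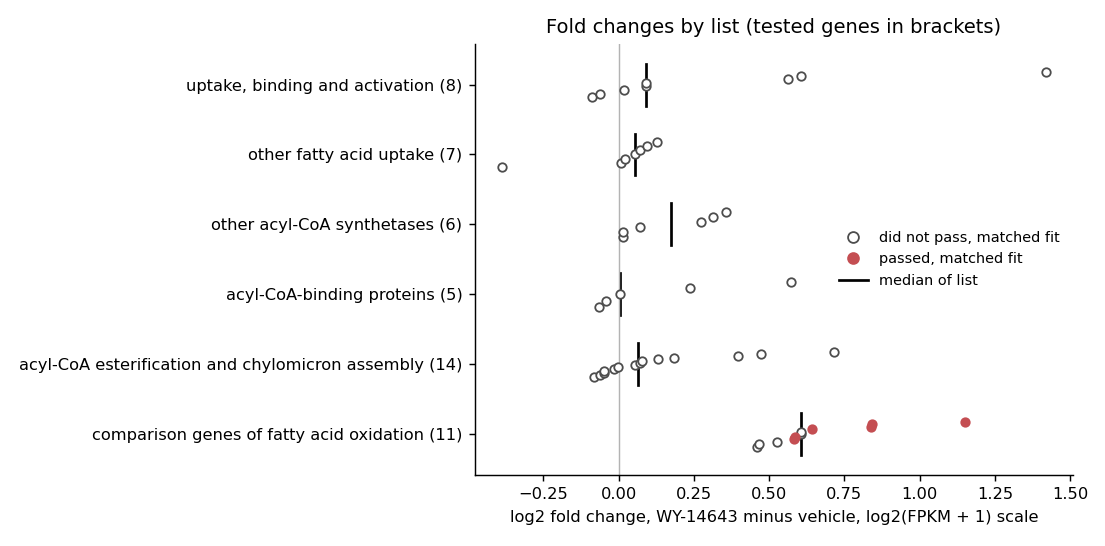
Log2 fold change (x axis, log2(FPKM + 1) scale, WY-14643 minus vehicle, without pairs) of each tested gene by list; filled points passed in the matched fit at an adjusted p of 0.05, and black lines are list medians. Filled points appear only in the comparison list, whose genes were chosen as known to differ. Fabp1, Acsl3 and Fabp2 stand to the right in the top row.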

How the data were processed

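RNA of 10 organoid libraries was measured in 1 table of FPKM values per gene, made and deposited by the authors. The submitters' processing notes name featureCounts 1.5.0-p3, HISAT2 2.0.5 and the build mm39, with no role or order. Annotation release, strandedness and scaling were not given in the sources used here. FPKM times gene length, divided by the smallest such value of a library, gave whole numbers for 100% of values (tolerance 0.01), and these recovered reads gave depth, ratios and a voom alternative.

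Genes with a mean of at least 0.5 FPKM over all libraries were tested (13607) by limma 3.58.1 in R 4.3.3 on log2(FPKM + 1), with a mean-variance trend, robust priors and no covariate, at a Benjamini-Hochberg adjusted p of 0.05. Fold changes on this scale understate those of low genes. The matched fit adds the pair as a block. Its pairs come from the numerical order of the library names and from correlated deviations (0.423 to 0.782), not from a label that states them. Both fits were tested on simulated data. Plots were made in matplotlib 3.10.9 (Python 3.11.15).

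The genes, pathway lists, marker lists and pairing were chosen with earlier results of these data known. Named were all 10 genes, and of each pathway list the 2 most abundant and those with the smallest p without pairs. For the smallest p the rule allows up to 4 genes, and 2 are given. Of each marker list the rule names the 2 most abundant. Up to 2 are given, and only for lists with a gene above the filter. For each tested gene the rule names up to 3 genes of most similar pattern (Pearson r of log2 values). The genes nearest in pattern to Fabp5 are not reported here. A few others, such as Fabp3, Acsf3, further absorptive markers, the overlapping genes and markers at 0, were named after their values were seen. Alternatives covered the pseudocount, filter, priors, scaling, library weights, voom, pairs and each library or pair left out. Intervals on reads cover counting error only.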

Additional observations from a re-analysis of the deposited data

Results flagged for a closer look

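In 5 of the 19 group and gene combinations checked, a single library stood apart from the other 4 of its group by more than 0.71 of the group's range. Chance does so in about 1 in 20 groups of continuous values, a rate that cannot be applied to the 4 groups below in which all other libraries were at 0. Fabp1 was at 14.2 FPKM in WY-14643 replicate 9 (140 reads), and the next library was at 1.40 FPKM. Those 4 rest on few reads: Fabp1 at 0.0623 FPKM in vehicle replicate 2 (1 read), Cd36 at 0.0130 FPKM in vehicle replicate 5 (1 read), Slc27a2 at 0.0631 FPKM in vehicle replicate 3 (5 reads) and Slc27a2 at 0.0115 FPKM in WY-14643 replicate 10 (1 read), with the rest of each group at 0.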

How the results depend on the processing

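Of 216 alternative values for the 8 tested genes, 204 kept their direction and stayed on the same side of the threshold, 4 passed it (Fabp1 and Fabp2 in voom with pairs, Acsl3 there and with pairs and library weights) and 8 turned in sign. The 8 belong to Fabp5 and Acsl4 with 1 library left out, where log2 fold changes ran from -0.27 to 0.077 and from -0.13 to 0.16. For Fabp1 and Fabp2 they ran from 0.80 to 1.78 and from 0.22 to 0.82, lowest without WY-14643 replicate 9, and for Acsl3 from 0.48 to 0.78. A pseudocount of 0.1 raised Fabp1 to 3.45 and voom without pairs to 3.98. The count of genes called, 0 without pairs, was 0 to 2 with a library left out (1 without vehicle replicate 2 or WY-14643 replicate 10, 2 without vehicle replicate 5), 21 with library weights, 43 with the replicate block and 212 in voom with the replicate block. In the replicate block it was 33, 3, 2, 13 and 33 without pairs 1 to 5. The matched variants added after seeing the data gave 40 (pseudocount 0.1), 2 (no filter) and 73 (library weights). Of the 10 genes, 0 were called except 3 in voom with the replicate block and 1 with the block and library weights. Library weights gave vehicle replicate 3 and WY-14643 replicate 8 weights of 4.35 and 3.90 and the others at most 1.02. Of 432 values for 16 named pathway genes, 389 were unchanged in call and direction, 27 passed and 16 turned in sign. Signs turned for Slc27a3 (-0.069 with library weights, -0.049 to 0.19 with a library left out), Agpat2 (-0.014 with library weights, -0.067 to 0.14 with a library and -0.027 with pair 1 left out), Got2 (-0.032 to 0.089, and -0.0065 with pair 3 left out), Acsm3 (-0.11 to 0.13, and -0.0085 with pair 2 left out) and Cav1 (-1.08 to 0.24), and the cause was not tested. Depth limits Fabp1, Cd36 and Slc27a2, where 3 reads are 0.0275 to 0.344 FPKM.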
